A study of Mus musculus with 9 samples.

Results

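The genes of Polycomb repressive complex 2 (PRC2) were examined in the mediobasal hypothalamus (MBH) of male mice at weaning. The 10 genes were Eed, Ezh1, Ezh2, Suz12, Rbbp4, Rbbp7, Jarid2, Mtf2, Phf1 and Phf19, out of 27642 genes with counts, and all 10 were among the 15340 genes that passed the filter on low counts, more than 1 CPM (counts per 1000000 counts) in 4 or more libraries. They were chosen on measured values: Eed is marked in the study as differing between the groups, and the other 9 genes were added as its complex. The comparison of the groups is therefore given for them as a description, without a p-value.

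RNA came from wild-type C57Bl/6 males at P21, 4 from litters whose dams drank plain water (CTRL) and 5 from litters whose dams drank water with 1% carboxymethylcellulose and 1% polysorbate 80 (Emul). Both compounds are dietary emulsifiers, and the dams received them before mating, during gestation and during lactation. All animals shared the genetic background, sex and age, and each library is described as a separate litter. Strand-specific libraries of poly(A)-selected RNA were quantified by the authors with kallisto, which assigns reads to annotated transcripts and gives estimated counts that need not be whole numbers.

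PRC2 places methyl groups on lysine 27 of histone H3, a mark of genes that are held silent. EZH2 or its paralogue EZH1 is the catalytic subunit, SUZ12 is the scaffold, and EED binds the finished mark and thereby stimulates the enzyme. RBBP4 and RBBP7 are histone-binding WD40 proteins that PRC2 shares with other chromatin complexes. JARID2 defines one form of the complex, PRC2.2, and the Polycomb-like proteins PHF1, MTF2 and PHF19 define another, PRC2.1. In the hypothalamus, Polycomb proteins are known for their part in holding the kisspeptin gene Kiss1 silent before puberty. EZH2 is the form of dividing cells in most tissues, and EZH1 is kept in cells that no longer divide.

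Eed encodes a WD40-repeat protein and lies on chromosome 7 from 89954654 to 89980983, minus strand (GRCm38/mm10, GENCODE M21). Its full-length coding transcript, Eed-201, has 2067 bases in 12 exons and a coding sequence of 1326 bases including the stop codon. The coding part of its exon 1 is shown because the comparison of the groups turned on this transcript. It lies at chr7:89980412-89980525 and reads, with the start codon in capitals:

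Eed-201: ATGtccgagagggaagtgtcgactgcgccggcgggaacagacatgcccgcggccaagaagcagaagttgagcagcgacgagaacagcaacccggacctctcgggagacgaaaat

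The paralogues Ezh1 and Ezh2 are shown because their levels are compared here and kallisto has to tell their reads apart. The last 60 coding bases, stop codon included, lie in 1 exon of each gene, at chr11:101192939-101192998 for Ezh1-203 and at chr6:47530541-47530600 for Ezh2-201, both on the minus strand. Of the 60 bases, 47 were the same (78.3%), and the 13 that differed are in capitals:

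Ezh1-203: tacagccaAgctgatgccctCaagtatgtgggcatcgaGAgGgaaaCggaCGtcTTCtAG
Ezh2-201: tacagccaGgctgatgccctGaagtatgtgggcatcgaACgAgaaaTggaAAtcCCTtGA

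The capitals fall among runs of shared bases, and no stretch of 31 bases, the length of the words that kallisto matches by default, was shared between any of the 10 genes. Among the quantified transcripts with a sequence in M21, 98.4% of the 3877 distinct 31-base words of Eed transcripts and over 99% of those of Ezh1, Ezh2, Suz12, Jarid2 and Mtf2 occurred in no other gene. Phf1 and Phf19 shared no such word with another gene of this set. The 2686 quantified transcripts without a match in M21 were not searched. Rbbp7 and Rbbp4 were the exceptions, with 88.4% and 95.0% of words of their own. The pseudogene Gm6382 held 339 words of Rbbp7 and the pseudogene Gm4800 held 164 of Rbbp4, so the counts of this pair are less certain.

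The libraries held between 28245360 and 46067534 estimated counts. All 10 MBH markers passed the filter, among them Agrp, Npy and Pomc, and the pituitary genes Gh and Prl did not, with CPM of at most 0.052 and 0.048. The telencephalic genes Neurod6 and Tbr1 were low, at 0.997 to 3.61 CPM and 1.32 to 4.80 CPM. In this bulk tissue, fewer cells of a type and less RNA per cell cannot be told apart.

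Among all 10 genes, Eed was the single gene set apart between the groups. The log2 CPM of Eed, with all its transcripts summed, was 3.77, 3.79, 3.75 and 3.75 in CTRL 1 to 4 and 3.49, 3.75, 2.54, 2.23 and 3.24 in Emul 1 to 5. The 4 CTRL libraries lay almost on one value, with a mean of 3.77 ± 0.020 (SD, n = 4). The Emul libraries were spread widely, with a mean of 3.05 ± 0.64 (SD, n = 5). Emul 2 lay just under the lowest CTRL library, both at 3.75 after rounding, and Emul 3 and Emul 4 were far below the others. The log2 fold change was -0.73 (SE 0.24), or 0.602 times the CTRL level, and 99.5% of all genes tested had a smaller change. The SE of Eed was also larger than that of 97.6% of the genes.

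**Figure D1:**
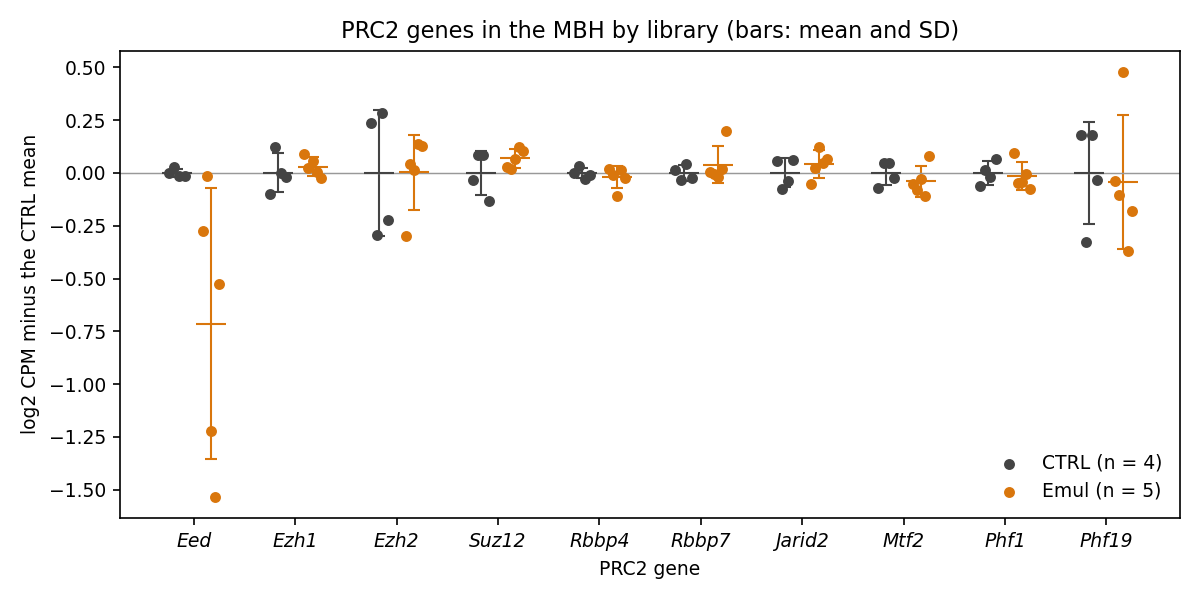
Log2 CPM of each PRC2 gene in each library, minus the mean of the 4 CTRL libraries of that gene, with CTRL in grey and Emul in orange; horizontal bars are group means and vertical bars are SDs. Emul 3 and Emul 4 are the lowest points of Eed, at a log2 CPM of 2.54 and 2.23, while the groups overlap for the other 9 genes.

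The methods of the study name a p-value and a fold change as the cutoff, without stating an adjustment, and an FDR is named elsewhere in the study. Taken as an unadjusted p under 0.05 with more than a 1.5-fold change, the cutoff was passed by 72 genes (0.469%) by limma-voom. With an adjusted p under 0.05 in its place it was passed by 1 gene (0.00652%), Gm9747, which is no member. Eed was the 1 member past the cutoff with an unadjusted p. It was also the 1 member at an unadjusted p under 0.05, a level that 15.8% of all genes reached, and the 1 member whose groups did not overlap, as was the case for 6.6% of genes. None of the 10 members had an adjusted p under 0.05, which 18 genes (0.117%) had. Since the choice of Eed used this contrast, nothing is read from these counts.

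The difference in Eed followed its coding transcript. The annotation holds 10 transcripts of Eed, of which 3 are protein coding, 6 retain an intron and 1 is a processed transcript. Eed-201 took 53.1% ± 8.4 of the counts of the gene in CTRL (SD, n = 4) and 31.4% ± 28 in Emul (SD, n = 5). Its estimated counts were 218.9, 305.5, 240.1 and 311.5 in CTRL 1 to 4 and 218.8, 265.1, 2.2, 3.4 and 194.9 in Emul 1 to 5. Emul 3 and Emul 4 thus held almost none of it, and Emul 1, 2 and 5 had 5.23 to 6.20 counts per 1000000 of the library total, overlapping the CTRL range of 5.66 to 8.50.

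The other 9 Eed transcripts together did not show this split. Their sum was 299.8, 263.4, 142.5 and 268.7 estimated counts in CTRL 1 to 4 and 223.8, 290.9, 216.1, 207.4 and 145.4 in Emul 1 to 5. Per 1000000 counts this was 6.34 ± 1.1 in CTRL (SD, n = 4) and 5.27 ± 1.1 in Emul (SD, n = 5), with overlapping groups. The most abundant of them were Eed-207 and Eed-206, both with a retained intron, at 12.9% ± 6.8 and 10.5% ± 4.5 of the counts of the gene (SD, n = 9). Over the 9 libraries, transcripts with a retained intron held 44.1% ± 18 of Eed counts and coding transcripts 48.3% ± 22 (SD). In Emul 4 and Emul 3, Eed-201 held 1.6% and 1.0%.

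Among the quantified transcripts with a sequence in M21, 13 of the 2037 words of 31 bases in Eed-201 belonged to no other Eed transcript. The same number occurred in no other transcript of any gene. A search of all 119414 transcripts, made after these values were seen, looked for those with more than 100 counts in both Emul 3 and Emul 4 and less than 30% of that in every other library. It found 5, of which 2 have no gene in the annotation used. One of these, ENSMUST00000238981 with 2060 bases, had 24.6, 0, 0 and 3.4 counts in CTRL 1 to 4 and 20.9, 0, 276.9, 300.8 and 9.2 in Emul 1 to 5. It was high in the 2 libraries where Eed-201 was near 0, and near 0 where Eed-201 was high.

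The search itself makes a sum with Eed-201 more even, and it did so for all 5 transcripts. The coefficient of variation over the 9 libraries was 59.7% for Eed-201 alone. It was 13.6% for the sum with ENSMUST00000238981, and 28.7% to 32.6% for the sums with the other 4, which included Kif5b-202, Chfr-206 and Rps6ka6-202. Rps6ka6-202 and the second transcript without a gene both had 4170 bases and the same rounded counts in every library, so they are not separate examples. The evenness is therefore a description and no test of a link with Eed. The sum of Eed-201 and ENSMUST00000238981 was 7.36 ± 0.90 counts per 1000000 in CTRL (SD, n = 4) and 6.29 ± 0.66 in Emul (SD, n = 5), and the groups overlapped. Which gene ENSMUST00000238981 belongs to is not given in the sources used here, and whether it shares sequence with Eed was not tested. Its position and sequence were not analysed here.

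**Figure D2:**
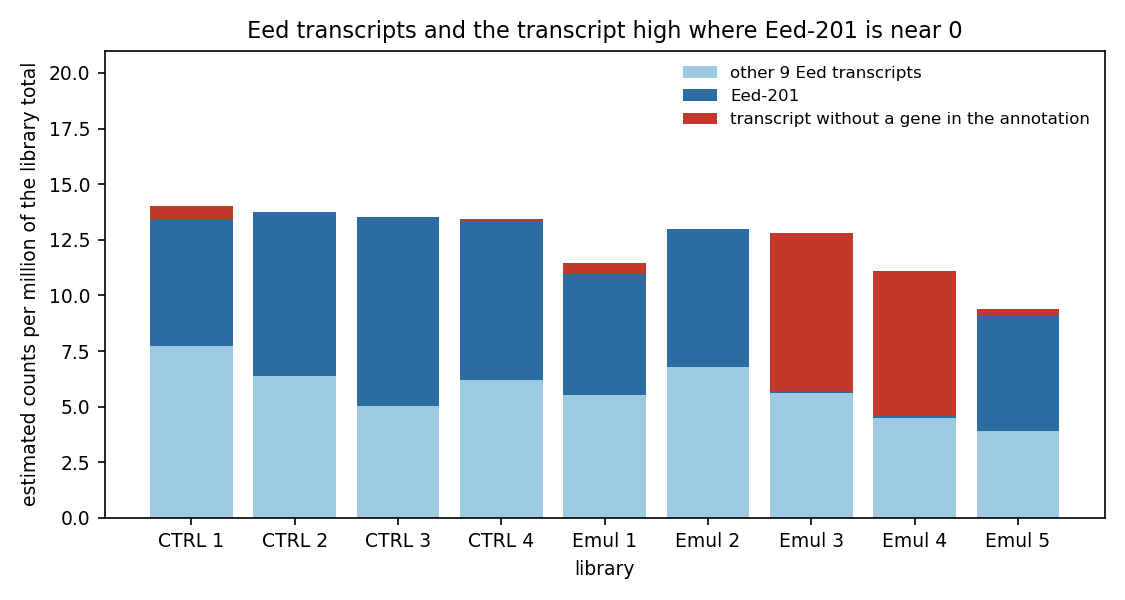
Estimated counts per 1000000 of the library total on Eed-201 (dark blue), on the other 9 Eed transcripts (light blue) and on the transcript without a gene in the annotation (red), stacked for each library. The red part holds 276.9 and 300.8 counts in Emul 3 and Emul 4, where Eed-201 holds 2.2 and 3.4.

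With the counts of this transcript added to Eed, an alternative chosen after the data were seen, the level of Eed was 13.7 ± 0.35 CPM in CTRL (SD, n = 4) and 11.8 ± 1.5 CPM in Emul (SD, n = 5). Emul 3 then lay at 13.1 CPM and Emul 4 at 11.3 CPM, inside the span of Emul 1, 2 and 5 of 9.66 to 13.4 CPM. The log2 fold change went from -0.73 to -0.22 (SE 0.084). Without Emul 3 and Emul 4 it was -0.26 (SE 0.10). In both cases Eed remained lower in Emul than in CTRL, by less than the cutoff of 1.5-fold.

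The log2 CPM table deposited by the authors showed a larger difference for Eed. In that table Eed stood at 2.59, 2.65, 3.07 and 2.61 in CTRL 1 to 4 and at 2.49, 2.43, -0.71, -0.71 and 2.29 in Emul 1 to 5. The 3 other Emul libraries lay close together, and Emul 3 and Emul 4 were more than 2 log2 units below them. The difference between the group means was -1.57 in the table, and -0.33 (SE 0.14) without Emul 3 and Emul 4.

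The table matched sums over part of the transcripts. Gene sums made from transcripts with lower Ensembl numbers only, scaled for transcript length, differed from the table by a mean of 0.00 to 0.01 log2 units for 8 of the 10 members, with an SD over libraries of 0.018. For Phf19 the mean difference was 0.07 (SD 0.023) and for Eed it was 0.22 (SD 0.062), so the fit was poorest for Eed. Of the 10 Eed transcripts, 2 have such lower numbers, Eed-201 and the intron-retaining Eed-202, and Eed-202 held 1.0% ± 0.83 of the counts of the gene (SD, n = 9). The Eed row of the table thus moved with Eed-201. With these 2 transcripts alone, unscaled, the log2 fold change was -2.39 (SE 0.90), and with the 3 coding transcripts it was -1.70 (SE 0.64).

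**Figure D3:**
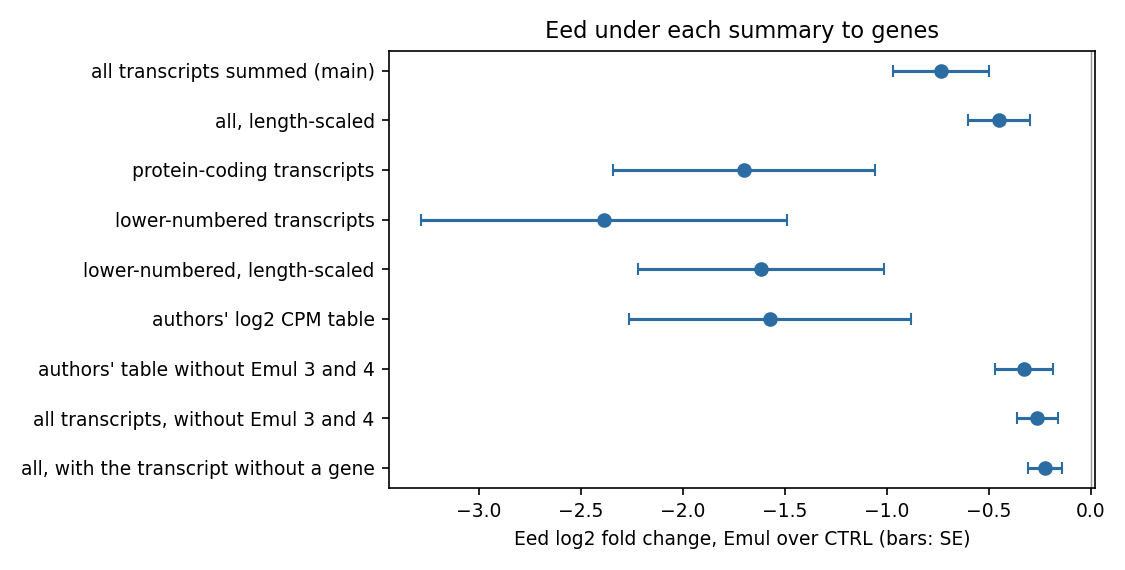
Log2 fold change of Eed in Emul over CTRL, with its SE, under 9 ways to summarise transcripts to the gene or to choose libraries. The value lies between -2.39 for lower-numbered transcripts and -0.22 with the transcript without a gene counted to Eed, and every value is below 0.

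The catalytic subunits did not share the difference seen in Eed. Ezh1, on chromosome 11 from 101191115 to 101226463, had a log2 CPM of 5.79, 6.01, 5.89 and 5.87 in CTRL 1 to 4 and of 5.98, 5.91, 5.95, 5.90 and 5.87 in Emul 1 to 5. The Emul values lay within the CTRL range (log2 fold change 0.03, SE 0.045). Ezh2, on chromosome 6 from 47530139 to 47595341, had a log2 CPM of 3.66, 3.13, 3.71 and 3.20 in CTRL 1 to 4 and of 3.13, 3.47, 3.44, 3.56 and 3.55 in Emul 1 to 5. Its CTRL libraries fell into a high and a low pair, and the groups overlapped throughout (log2 fold change 0.03, SE 0.13).

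Ezh1 was the higher of the paralogues in every library. Levels of different genes are compared in TPM, a unit that corrects for transcript length. Ezh1 stood at 39.7 ± 2.8 TPM and Ezh2 at 17.6 ± 3.5 TPM (SD, n = 9). The ratio of Ezh1 to Ezh2 was 2.29-fold on average and ranged from 1.66-fold to 2.86-fold, above 1 in 9 of 9 libraries (two-sided exact permutation test, p = 0.0039, the smallest it can give, and 0.0039 after adjustment over 2 ratios). On coding transcripts alone, with means of 27.2 TPM for Ezh1 and 4.82 TPM for Ezh2, the mean log2 ratio was 2.54 in place of 1.19. Of the counts, coding transcripts held 93.5% ± 1.3 for Ezh1 and 48.2% ± 6.8 for Ezh2 (SD, n = 9). Transcripts of Ezh2 with a retained intron held 41.0% ± 5.0. The mean log2 ratio was 1.14 ± 0.33 in CTRL (SD, n = 4) and 1.24 ± 0.18 in Emul (SD, n = 5), so that the groups differed by less than 1 SD of either.

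Markers of dividing cells were present at low levels beside Ezh2. Of 13 such genes 12 passed the filter, Mki67 with 1.97 to 4.26 CPM and Top2a with 2.65 to 4.51 CPM. None of the 12 had an unadjusted p under 0.05, and the log2 of their summed CPM lay between 5.85 and 5.99 in CTRL and between 5.87 and 6.06 in Emul. Their part in the level of Ezh2 was not tested.

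Among the transcripts of Ezh1, counts moved between a nearly identical pair. Ezh1-202 and Ezh1-203 have 4207 and 4193 bases, and all 4163 words of 31 bases in Ezh1-203 also occur in Ezh1-202, which has 14 more bases. Ezh1-202 had 590.8, 26.4, 308.4 and 1100.7 counts in CTRL 1 to 4 and 864.6, 18.5, 307.6, 25.7 and 15.0 in Emul 1 to 5. Ezh1-203 had 862.9, 1776.1, 796.2 and 586.6 in CTRL 1 to 4 and 846.7, 1722.8, 1237.7, 1779.0 and 1389.2 in Emul 1 to 5. One was high where the other was low, in both groups. Per 1000000 counts their sum was steady, with a coefficient of variation of 5.10% against 105% for Ezh1-202 and 33.0% for Ezh1-203. Ezh1-201, which has 1282 words of its own, kept between 23.0% and 27.8% of the counts of Ezh1 in every library.

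**Figure D4:**
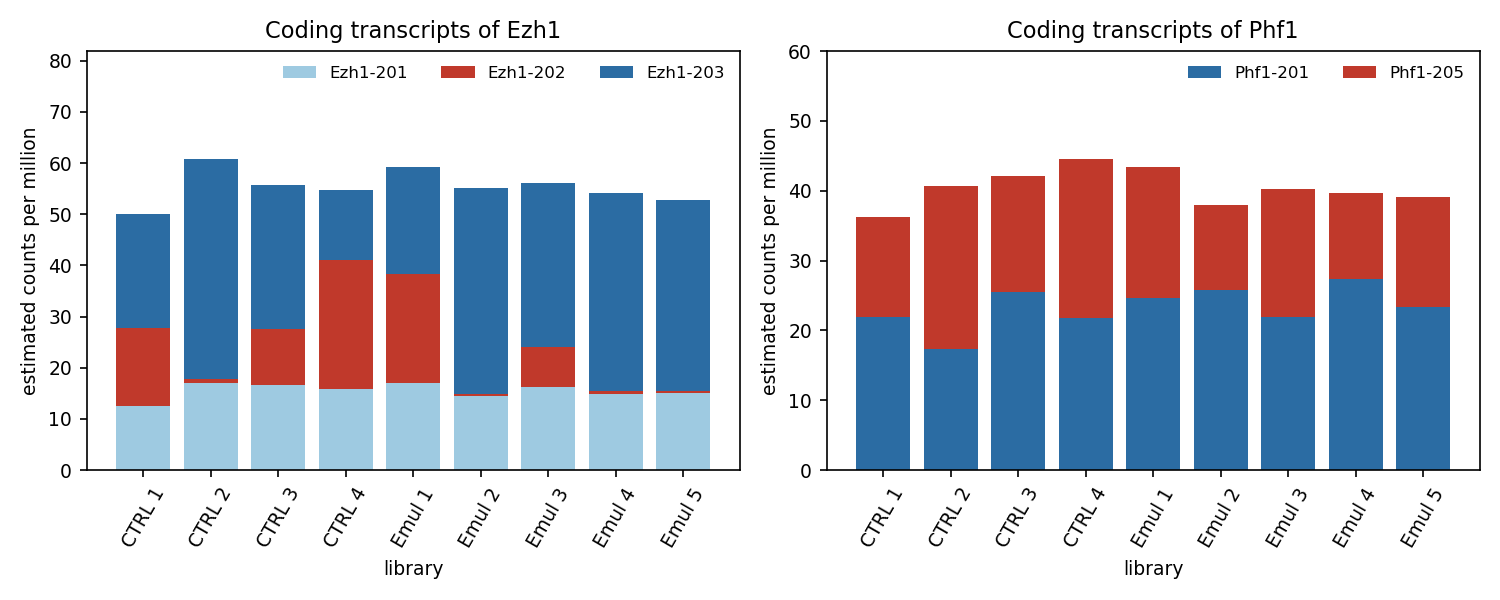
Estimated counts per 1000000 of the library total on the 3 coding transcripts of Ezh1 (left) and on the 2 main coding transcripts of Phf1 (right), stacked for each library. The red and dark blue parts trade counts between libraries, while the height of Ezh1-202 and Ezh1-203 together varies by 5.10% and that of Phf1-201 and Phf1-205 by 6.47%.

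The scaffold gene Suz12, on chromosome 11 from 79993106 to 80034123, was the member with the highest log2 fold change, 0.07 (SE 0.049). Its log2 CPM was 5.32, 5.44, 5.43 and 5.22 in CTRL 1 to 4 and 5.38, 5.37, 5.42, 5.48 and 5.45 in Emul 1 to 5. The groups overlapped, and in the table of the authors the difference was -0.01. Suz12 was quantified almost wholly on coding transcripts, at 98.6% ± 0.95 (SD, n = 9), with 91.2% ± 5.4 on Suz12-201.

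The histone-binding pair was the most abundant of the complex. Rbbp7, on chromosome X from 162760402 to 162779092, stood at 129.9 ± 7.1 TPM, and Rbbp4, on chromosome 4 from 129307100 to 129335370, at 79.5 ± 7.2 TPM (SD, n = 9). Rbbp4 was 0.611 times Rbbp7 on average (range 0.523 to 0.724) and lower in 9 of 9 libraries (two-sided exact permutation test, p = 0.0039, adjusted 0.0039). The log2 CPM of Rbbp4 was 7.07, 7.11, 7.05 and 7.06 in CTRL 1 to 4 and 7.09, 7.06, 6.96, 7.09 and 7.05 in Emul 1 to 5. That of Rbbp7 was 6.80, 6.75, 6.83 and 6.76 in CTRL 1 to 4 and 6.79, 6.78, 6.77, 6.81 and 6.98 in Emul 1 to 5. The groups overlapped for both, with log2 fold changes of -0.02 (SE 0.032) and 0.04 (SE 0.044). Emul 5 was the highest library for Rbbp7, and without it the log2 fold change was 0.00. All 5 transcripts of Rbbp7 are coding, led by Rbbp7-203 at 46.8% ± 2.8 and Rbbp7-201 at 38.9% ± 2.0, and Rbbp4-201 took 86.0% ± 1.4 of Rbbp4 counts (SD, n = 9).

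Jarid2, the accessory subunit of PRC2.2, lies on chromosome 13 from 44729474 to 44921643. Its log2 CPM was 5.86, 5.72, 5.76 and 5.86 in CTRL 1 to 4 and 5.75, 5.82, 5.92, 5.85 and 5.87 in Emul 1 to 5, with overlapping groups (log2 fold change 0.04, SE 0.044). Jarid2-208 held 57.6% ± 6.6 of its counts and the coding Jarid2-201 14.7% ± 6.4 (SD, n = 9). Jarid2-216, a retained-intron transcript of 8353 bases, held 15.2% ± 2.2.

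The Polycomb-like genes of PRC2.1 differed from each other in level far more than between the groups. Mtf2, on chromosome 5 from 108065674 to 108109004, stood at 53.7 ± 5.7 TPM and Phf1, on chromosome 17 from 26933052 to 26937908, at 41.1 ± 2.5 TPM. Phf19, on chromosome 2 from 34893757 to 34914026, stood at 1.26 ± 0.43 TPM, with 43 to 72 estimated counts a library. Phf19 was the lowest of the 10 genes and 14.4-fold below its neighbour in order, Ezh2 (9 of 9 libraries, exact permutation test, adjusted p = 0.0070). The gap was smaller on coding transcripts alone, with means of 0.69 TPM for Phf19 and 4.82 TPM for Ezh2.

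The log2 CPM of Mtf2 was 5.76, 5.88, 5.88 and 5.80 in CTRL 1 to 4 and 5.78, 5.75, 5.80, 5.72 and 5.91 in Emul 1 to 5. That of Phf1 was 5.57, 5.64, 5.61 and 5.70 in CTRL 1 to 4 and 5.73, 5.58, 5.59, 5.62 and 5.55 in Emul 1 to 5. That of Phf19 was 0.67, 0.16, 0.67 and 0.46 in CTRL 1 to 4 and 0.45, 0.38, 0.97, 0.12 and 0.31 in Emul 1 to 5. The groups overlapped for each, with log2 fold changes of -0.04 (SE 0.044), -0.02 (SE 0.043) and -0.04 (SE 0.19). Coding transcripts held 60.7% ± 3.6 of Mtf2 counts and 89.7% ± 2.6 of Phf1 counts. The Phf19 shares rested on few counts, with 49.9% ± 25 on coding transcripts (SD, n = 9).

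Phf1 was the member other than Eed for which the table of the authors differed most from the gene sum. In the table its group means were 4.54 ± 0.22 (SD, n = 4) and 4.76 ± 0.12 (SD, n = 5), higher in Emul by 0.22, whereas the sum over all transcripts differed by -0.02. Phf1-201, which has a lower number, and Phf1-205, which does not, share 2349 words of 31 bases, or 94.3% of those of Phf1-201. Phf1-201 held 43.9% ± 7.3 of the counts of the gene in CTRL (SD, n = 4) and 51.5% ± 4.4 in Emul (SD, n = 5), and Phf1-205 held 38.8% ± 7.9 and 32.3% ± 6.1. The shares overlapped between the groups, and the sum of both transcripts was 40.9 ± 3.5 and 40.1 ± 2.1 counts per 1000000.

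The other 9 members had log2 fold changes between -0.04 (Phf19) and 0.07 (Suz12), with a median of 0.03. Of these, 5 were higher and 4 were lower in Emul, and the groups overlapped for all 9. Over all 15340 genes the median log2 fold change was 0.00 and the median absolute change 0.063, with a median SE of 0.058. With Eed included, the median of the 10 members was 0.01.

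In order of mean TPM the members ran Rbbp7, Rbbp4, Mtf2, Phf1, Ezh1, Eed, Jarid2, Suz12, Ezh2 and Phf19. Eed stood sixth, at 33.5 ± 2.7 TPM in CTRL (SD, n = 4) and 23.4 ± 5.2 TPM in Emul (SD, n = 5). Of 9 neighbouring pairs, 7 differed in level, with a mean log2 ratio away from 0 (two-sided exact permutation tests of log2 ratios, n = 9, adjusted p between 0.0070 and 0.040). Phf1 and Ezh1 did not (1.04-fold, adjusted exact p = 0.14), nor did Jarid2 and Suz12 (1.02-fold, adjusted exact p = 0.48). Eed was below Ezh1 in 9 of 9 libraries. It was above Jarid2 in 6 of 9 libraries and below it in Emul 3, Emul 4 and Emul 5. For that pair the mean log2 ratio of 0.35 was smaller than its SD of 0.39 (n = 9). The test pooled both groups, so for this pair it cannot separate level from the difference of Eed between the groups. On coding transcripts alone Eed was at rank 8 with 7.22 TPM and Mtf2 at rank 7 with 16.5 TPM, while Rbbp7, Rbbp4 and Phf19 kept ranks 1, 2 and 10. Mtf2 then lay below Phf1 (35.5 TPM) and Eed below Jarid2 (18.1 TPM). Both pairs thus turned round, and the order on coding transcripts was not tested.

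**Figure D5:**
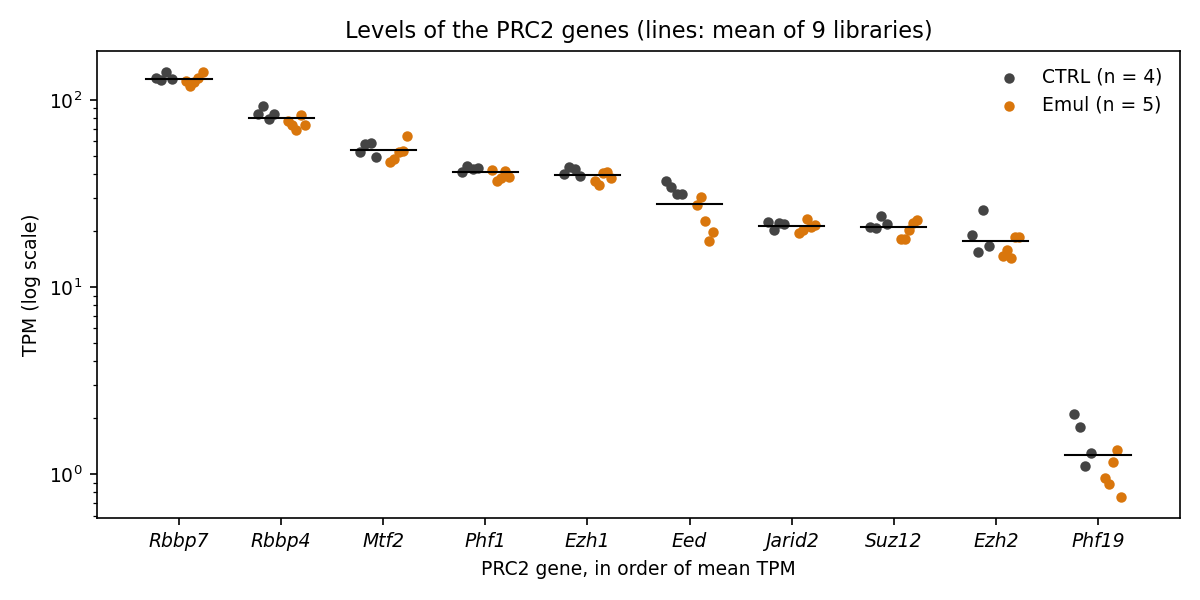
TPM of the 10 PRC2 genes in each library on a log axis, in order of mean TPM, with CTRL in grey, Emul in orange and the mean of all 9 libraries as a line. Rbbp7 has a mean of 129.9 TPM and Phf19 of 1.26 TPM, and the other 8 genes lie between 17.6 and 79.5 TPM.

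The wider Polycomb system was read from 9 lists of 126 genes, of which 82 passed the filter on low counts. No gene of the lists had an adjusted p under 0.05 by limma-voom, edgeR or limma-trend. At an unadjusted p under 0.05 by limma-voom there were 15 (18.3%), 2 higher and 13 lower in Emul. Of all genes 15.8% reached that level, 6.84% higher and 8.99% lower. The median log2 fold change of the 82 genes was -0.02, beside 0.00 over all genes. By DESeq2 there were 5 with an adjusted p under 0.05, all lower in Emul, namely Chd4, E2f6, Kdm6b, Setd1b and Sin3b. Of all genes with an adjusted p from DESeq2, 2.43% were under 0.05, and 1.43% were so and lower. Without Emul 3 and Emul 4, 19 of the 82 had an unadjusted p under 0.05 by limma-voom, 2 higher and 17 lower, and none an adjusted p under 0.05. In that fit 17.6% of all genes had an unadjusted p under 0.05, 8.66% higher and 8.97% lower.

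Of 3 H3K27 demethylase genes, 0 were higher and 1 was lower in Emul by limma-voom at an unadjusted p under 0.05, beside 6.84% and 8.99% of all genes. The lower gene was Kdm6b, which removes the mark that PRC2 places (log2 fold change -0.15, SE 0.037, adjusted p = 0.11). Its log2 CPM was 6.35 ± 0.041 in CTRL (SD, n = 4) and 6.20 ± 0.060 in Emul (SD, n = 5), without overlap. Its Y-linked relative Uty was at -0.09 (SE 0.047, adjusted p = 0.40). Kdm6a went the other way, at 0.09. The NuRD ATPase gene Chd4, a partner of Rbbp4 and Rbbp7, had the smallest p of the lists (log2 fold change -0.12, SE 0.025, adjusted p = 0.099). It stood at 8.06 ± 0.028 in CTRL (SD, n = 4) and 7.94 ± 0.020 in Emul (SD, n = 5), without overlap. The groups did not overlap for 7 of the 82 tested genes of the lists, beside 6.6% of all genes. Sin3b, of the SIN3 deacetylase complex, was at -0.12 (SE 0.030, adjusted p = 0.12). In the list of NuRD, SIN3 and CAF-1 genes 3 of 17 tested were lower at an unadjusted p under 0.05 and 0 were higher, beside 8.99% lower and 6.84% higher of all genes.

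Of 27 genes of PRC1, the complex that places ubiquitin on histone H2A, 1 was higher and 5 were lower at an unadjusted p under 0.05, beside 6.84% and 8.99% of all genes. The smallest p-values were those of the DNA-binding subunit gene E2f6 (log2 fold change -0.16, SE 0.041, adjusted p = 0.14) and of Bcorl1 (-0.18, SE 0.054, adjusted p = 0.17). Among the other accessory subunits of PRC2, 5 of 6 passed the filter. Aebp2, which joins JARID2 in PRC2.2, was at -0.12 (SE 0.045, adjusted p = 0.22) and Lcor at -0.12 (SE 0.092, adjusted p = 0.56). Ezhip was matched to no transcript.

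Trithorax genes and H3K27 acetyltransferases, which oppose Polycomb silencing, held 1 higher and 3 lower gene at an unadjusted p under 0.05 among 15, beside the same 6.84% and 8.99% of all genes. Setd1b, an H3K4 methyltransferase gene, was at -0.17 (SE 0.046, adjusted p = 0.15), and Dpy30, a subunit of the same enzymes, at 0.17 (SE 0.053, adjusted p = 0.18). In the lists of the deubiquitinase PR-DUB (8 tested) and of H3K36 methyltransferases (5 tested), 0 genes had an unadjusted p under 0.05. Asxl3 was at 0.47 (SE 0.26, adjusted p = 0.40) and Mbd6 at -0.10 (SE 0.057, adjusted p = 0.44) in the former. Ash1l was at 0.06 (SE 0.041, adjusted p = 0.53) and Setd2 at 0.03 (SE 0.036, adjusted p = 0.70) in the latter.

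The classical targets of PRC2, the Hox genes and the Cdkn2 cell cycle inhibitors, were near the floor in both groups. None of the 41 passed the filter, and the log2 of their summed CPM lay between 1.71 and 1.92 in CTRL and between 1.60 and 1.96 in Emul. The highest were Cdkn2b with 0.25 to 1.16 CPM and Hoxc9 with 0.39 to 0.93 CPM, and Cdkn2a had at most 4 counts in a library. Kiss1 also stayed under the filter, with 0 to 13.9 counts. Tac2, which encodes neurokinin B of the kisspeptin neurons, had a log2 difference of 0.03 with an SE of 0.098 (limma, adjusted p = 0.92). The receptor gene Kiss1r was at -0.03 with an SE of 0.084 (limma, adjusted p = 0.90).

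Cell type markers varied as follows beside these values, where 6.84% of all genes were higher and 8.99% lower at an unadjusted p under 0.05. In Emul, 3 of 5 neuronal markers were higher at an unadjusted p under 0.05, with Rbfox3 at 0.12 (SE 0.031, adjusted p = 0.12 by limma-voom), and 1 of 5 astrocyte markers was lower, Gfap at -0.40 (SE 0.088, adjusted p = 0.10). The log2 of the summed CPM of the neuronal markers ranged from 11.07 to 11.19 in CTRL and from 11.18 to 11.28 in Emul. That of the astrocyte markers ranged from 10.40 to 10.52 in CTRL and from 10.25 to 10.40 in Emul. Of 6 markers of oligodendrocyte precursors 1 was lower, Olig1 at -0.15 (SE 0.067, adjusted p = 0.30), and of 5 microglial markers none reached that level. Of the MBH markers 1 of 10 was lower, Fezf1 at -0.32 (SE 0.10, adjusted p = 0.18). The part of these markers in the values of the PRC2 genes and of the lists was not tested.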

How the data were processed

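Estimated counts and TPM for 119414 transcripts per library were made by the authors with kallisto 0.46.1 (mm10, per the labels), and are not normalized for depth. Their second deposited file, a gene table in log2 CPM, was used without a pseudocount. How it was summarised is not given in the sources used here.

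Of the transcripts, 97.8% matched GENCODE M21 by Ensembl identifier. The 1.20% to 1.27% of counts on unmatched transcripts stayed out of library sizes and tests. Estimated counts were summed per gene. The 15340 genes with more than 1 CPM in 4 or more libraries were compared by limma-voom 3.58.1 (TMM, Benjamini-Hochberg, no covariates) after the methods of the study. Library values of log2 CPM carry a prior count of 2. Counts were rounded for edgeR 4.0.16 and DESeq2 1.42.0 only. Levels were compared in TPM by exact sign-flip permutation. Words of 31 bases come from the matched M21 transcripts, counted on the same strand.

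Members, lists and tests were chosen with earlier results of these data known. Genes named are the members, the 2 smallest p-values of each list and the markers. Cdkn2b, Hoxc9, Cdkn2a, Gm9747, Kdm6a and the 4 named transcripts high in Emul 3 and Emul 4 were named after their values were seen. A telencephalic marker of the lists is not reported here. The depth was 28245360 to 46067534 counts a library, and the spread between litters was not separated from counting error. No batch is given in the sources used here.

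Same-numbered libraries of the groups did not deviate together (r between -0.16 and 0.02), so the replicate number was not used as a pairing. Alternatives covered the test, scaling, filter, summary to genes and each library left out.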

Additional observations from a re-analysis of the deposited data

Results flagged for a closer look

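Of 88 groups of member values examined, 6 held a library whose gap to the nearest other, divided by the whole range, passed the 95% limit of Dixon's test. Chance gives about 1 in 20 such groups. Rbbp7 was highest in Emul 5 both as a gene sum (log2 CPM 6.98, other Emul libraries 6.77 to 6.81) and in the table of the authors (7.07, other Emul libraries 6.90 to 6.94). Among the Emul libraries, Ezh2 was lowest in Emul 1 (log2 CPM 3.13, other Emul libraries 3.44 to 3.56), and CTRL 2 was also at 3.13. Eed was highest in CTRL 3 in the table of the authors (3.07, other CTRL libraries 2.59 to 2.65), the library with the lowest total. The intron-retaining Eed-207 held 12.9% of Eed counts in CTRL 1 and 7.78% to 8.50% in the other CTRL libraries. Rbbp4-201 held 88.5% of Rbbp4 counts in Emul 5 and 86.2% to 86.8% in the other Emul libraries.

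Outside the gene comparison, the transcript without a gene in the annotation held 276.9 estimated counts in Emul 3 and 300.8 in Emul 4, above the highest CTRL library with 24.6. What it represents was not tested.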

How the results depend on the processing

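Eed was lower in Emul under all 26 alternatives. Its log2 fold change of -0.73 moved by more than the spread of the libraries in 5 of them: -1.70 with coding transcripts only, -2.39 with lower-numbered transcripts, -1.62 with these scaled for length, -1.57 in the table of the authors and, added after seeing the data, -0.22 with the transcript without a gene. With 1 library left out it ran from -0.92 (without Emul 2) to -0.50 (without Emul 4). Without both Emul 3 and Emul 4, also added after seeing the data, it was -0.26. That shift counted as within the spread of the libraries (pooled SD 0.49), a spread that itself includes Emul 3 and Emul 4. For the other 9 members, 218 of 233 alternative values stayed within the spread of the libraries, and the values lay between -0.52 (Phf19, length-scaled) and 0.25 (Phf1, lower-numbered transcripts). The ratios Ezh1 over Ezh2 and Rbbp4 over Rbbp7 kept their direction and p under 0.05 in all 12 alternatives each, with ranges of mean log2 ratio with 1 library left out of 1.15 to 1.25 and -0.74 to -0.68. Phf19 could not be fitted with coding transcripts only.

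The number of genes past the cutoff was 72, but 684 without a filter and 186 with filterByExpr, and 48 to 95 with 1 library left out. The number with an adjusted p under 0.05 was 18 by limma-voom, 33 by edgeR, 336 by DESeq2 and 8 by limma-trend. It was 10 with median-of-ratios scaling, 60 with library size alone, 5 without a filter, 10 with filterByExpr, 6 with length scaling, 10 with coding transcripts, 10 with lower-numbered transcripts, 5 with these length-scaled, 5 in the table of the authors, 6 without mitochondrial genes, 3 without Emul 3 and Emul 4, and 0 (without CTRL 2) to 24 (without Emul 4) with 1 library left out. Of the pathway genes, 5 had an adjusted p under 0.05 by DESeq2, 1 (Chd4) with library size alone and 0 otherwise. With the replicate number as a block, 1 gene had an adjusted p under 0.05, and the log2 fold change of Eed was -0.64. Same-numbered libraries did not deviate together, so the main fit did not use the numbers as a pairing. The causes of these shifts were not tested.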

Other observations

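The 5 genes whose log2 CPM followed that of Eed most closely over the 9 libraries were Tmem121 (Pearson r = 0.95), Fam84b (0.94), Ifi27l2a (0.94), Trim14 (0.94) and Zfp78 (0.93). They were the highest of 15339 genes searched, so high values were to be found. After the group means were subtracted, r lay between 0.89 and 0.93, and without Emul 3 and Emul 4 between 0.72 and 0.87 (n = 7). Their log2 fold changes were smaller than that of Eed, between -0.18 (Tmem121) and -0.32 (Trim14). Ifi27l2a and Trim14 lay near the filter on low counts. Their mean log2 CPM was 0.19 and 0.53 in CTRL and -0.08 and 0.22 in Emul.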
